A study of Mus musculus with 2 samples.

Results

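Nuclear receptors are transcription factors that most often bind a small lipid-soluble ligand, such as a steroid, a retinoid or a thyroid hormone, and then switch genes on or off by recruiting coactivators or corepressors. The steroid receptors wait in the cell bound to heat shock chaperones and act mainly as pairs of the same protein, whereas many others bind DNA together with a retinoid X receptor (RXR). In the hair follicle the vitamin D receptor is best known, because mice without it fail to start new hair cycles, a role that does not need its ligand. The members described here are the 42 genes on a list of mouse nuclear receptors, and each was found under its own gene ID among the 42392 gene IDs of the expression table. Genes were taken by name, with no threshold on a measured level. It does not cover the whole receptor family.

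The study isolated hair follicle stem cells from the skin of female mice and measured their RNA by sequencing. The series has 1 sample from resting follicles (telogen) and 1 from follicles that had begun to regrow (anagen II-III). Both carry K15-CrePGR and Shh+/- and had RU486 for 8 days, and both are titled controls. K15-CrePGR is a Cre recombinase fused to part of the progesterone receptor and driven by a keratin 15 promoter, and RU486 (mifepristone) is the ligand that switches it on. RU486 also binds the progesterone receptor and the glucocorticoid receptor as an antagonist. Both samples had the drug, so its effect on any gene cannot be told apart from the other conditions they shared. Cells were sorted for high integrin alpha 6 and for CD34, leaving out SCA1 and surface markers of fibroblasts, endothelium, leukocytes and melanocytes or mast cells. The values below are those of the anagen II-III library. The telogen library was not analysed here, because no column name of the table fits it alone.

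Levels are in TPM, transcripts per 1000000, which divides reads by gene length and by the library total, so that genes can be compared with each other. There is 1 library and therefore no replicate error and no test, the read depth behind the values is unknown, and no interval could be set. The number of mice behind the library is not stated in the labels. Of the cell type markers, the 10 for bulge and basal cells ranged from Nfatc1 at 16.1 TPM to Krt5 at 3833 TPM, with the bulge keratin Krt15 at 3364 TPM. The 6 fibroblast markers summed to 879 TPM, nearly all of it from collagens and Dcn, with Pdgfra, the marker used in the sort, at 1.44 TPM. The summed markers were 11.3 TPM for endothelium, 33.9 TPM for leukocytes, 44.8 TPM for melanocytes, 97.5 TPM for sebocytes and adipocytes and 1314 TPM for suprabasal cells. Mgst1 made up 93.7 TPM of the sebocyte and adipocyte sum. Of the suprabasal sum, Krtdap made up 769 TPM, Sbsn 359 TPM and Krt10 138 TPM. Ivl, Lor and Flg were its lowest genes at 7.58, 6.77 and 0.00794 TPM. No marker of these lists was listed at 0, and the part of such cells in any receptor value was not tested.

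Of the 42 nuclear receptors, 21 reached 1 TPM, and among all 20856 protein-coding genes 55.9% did so. The receptors were thus expressed about as often as genes in general. Their median was 0.958 TPM, against 2.42 TPM for all protein-coding genes, and the median of the 21 at 1 TPM or more was 19.3 TPM, against 12.5 TPM. Only Vdr and Rarg were at 100 TPM or more, where 3.54% of protein-coding genes stood. With the next 10 receptors, between 10 and 100 TPM, they made 12 at 10 TPM or more (28.6% of the members, against 31.8% of protein-coding genes). Below them, 2 lay between 5 and 10 TPM and 7 between 1 and 5 TPM. A further 14 had a value above 0 but under 1 TPM. Esrrg, Hnf4a, Nr0b1, Nr0b2, Nr1h4, Nr2e1 and Nr5a1 were listed at 0, and among protein-coding genes 20.4% were. These receptors are known from other tissues, such as Hnf4a and Nr1h4 from liver and intestine and Nr5a1 from the adrenal gland and gonads. All 42 receptors together held 924 TPM, of which the 12 highest took 96.8% and Vdr alone 36.3%. In bulk RNA, a low value from fewer expressing cells and one from less RNA per cell cannot be told apart. Of the 20 steps between neighbours in the order of the 21 expressed receptors, 10 were under 1.2-fold, and with no replicate the order of such neighbours was not established.

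**Figure D1:**
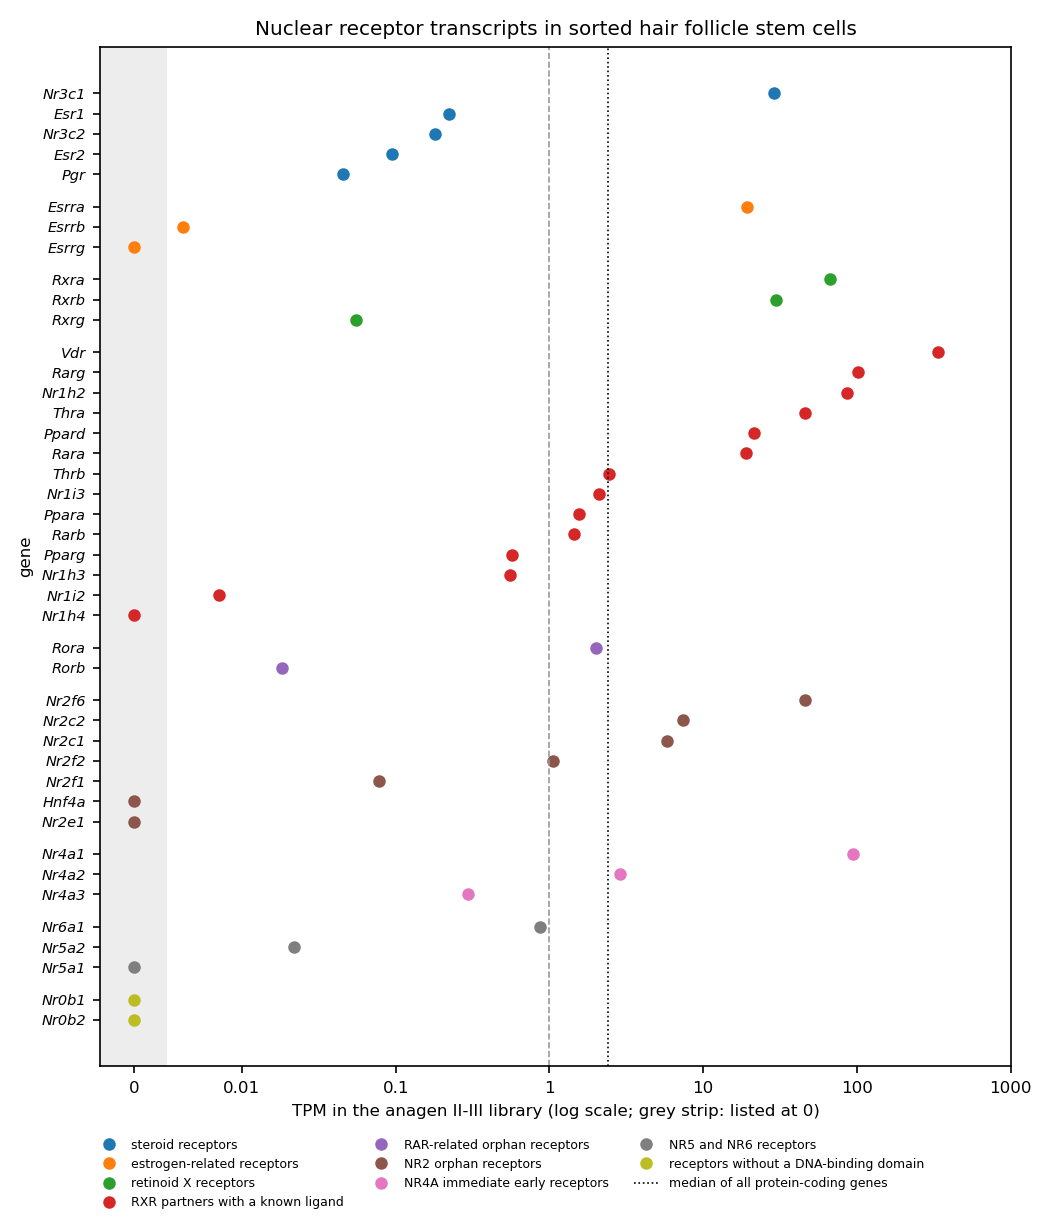
Level of each of the 42 nuclear receptor genes (rows, coloured by role) in the anagen II-III library, on a log axis of TPM, with genes listed at 0 in the grey strip. The dashed line marks 1 TPM and the dotted line the 2.42 TPM median of all protein-coding genes. In most roles a gene or a few lie far to the right of their relatives, and Vdr lies farthest right at 336 TPM.

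The receptors that RU486 binds were at very different levels. Nr3c1, the glucocorticoid receptor (ENSMUSG00000024431, GRCm38 chr18:39410545-39519421), stood at 29.1 TPM, higher than 85.5% of protein-coding genes. Pgr, the progesterone receptor (ENSMUSG00000031870, chr9:8898900-8968611), stood at 0.0456 TPM. At such low values a transcript cannot be told from none, because the depth is unknown, so no fold is given against values under 1 TPM. Whether reads of the CrePGR transgene count toward Pgr was not tested, but the whole Pgr value was under 0.1 TPM. Nr3c2, the mineralocorticoid receptor, stood at 0.180 TPM. The estrogen receptor genes Esr1 and Esr2 stood at 0.222 and 0.0947 TPM. Nr3c1 was therefore the only member of the 5 listed steroid receptors at 1 TPM or more in this library.

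The partners and targets of steroid receptors were mostly well expressed. The 10 chaperone genes had a median of 82.5 TPM and none was under 5 TPM. Hsp90ab1, which encodes the chaperone that holds steroid receptors ready for ligand, was highest at 744 TPM, followed by Hspa8 at 558 TPM and Hsp90aa1 at 237 TPM. Ppid and Fkbp5 were lowest at 34.8 and 7.13 TPM. The cochaperone Fkbp4, which favours transport of the receptor to the nucleus, stood at 112 TPM and was 15.8-fold above Fkbp5, which opposes it and is itself a glucocorticoid target. All 13 genes known as glucocorticoid targets passed 1 TPM, and their median was 36.2 TPM. Among all protein-coding genes 55.9% passed, the share to set beside the counts of this and the later lists. The metallothionein genes Mt2 and Mt1 led at 256 and 226 TPM, followed by the phosphatase gene Dusp1 at 117 TPM, while Fkbp5 and Zbtb16 were lowest at 7.13 and 1.22 TPM. Most genes of this list answer to other signals as well, and no sample without RU486 was compared here. Of the enzymes that convert corticosteroids, Hsd11b2, which inactivates them, stood at 4.58 TPM and Hsd11b1, which restores them, at 0.152 TPM, with H6pd, which feeds Hsd11b1, at 2.97 TPM.

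Genes that make steroids from cholesterol were at low levels. Of 10 measured, 1 reached 1 TPM. This was Srd5a1, a 5-alpha reductase that acts on testosterone, at 16.1 TPM. Star, which brings cholesterol into mitochondria, stood at 0.911 TPM and Cyp17a1 at 0.707 TPM, while Cyp19a1, the aromatase that makes estrogens, Cyp11b1 and Hsd3b1 were listed at 0. Of 7 genes tied to estrogen or progesterone action, Igfbp4 at 365 TPM, Cxcl12 at 151 TPM and Cited2 at 70.5 TPM were highest. Greb1, a well-known estrogen receptor target, stood at 0.159 TPM and Tff1 was listed at 0.

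Within the vitamin D axis, the receptor was high and its inducible target low. Vdr (ENSMUSG00000022479, chr15:97854427-97908296) stood at 336 TPM, rank 204 among protein-coding genes and 3.32-fold above the next receptor. Its span overlaps the noncoding genes Gm33690 and Gm52171 over 18428 and 2369 bases. No value was found for either, and their part in the Vdr value was not tested. Cyp24a1, which breaks down active vitamin D and is strongly induced by ligand-bound Vdr, stood at 0.0541 TPM. Cyp27b1, which makes the active hormone, stood at 4.20 TPM and Cyp2r1, which prepares its precursor, at 0.247 TPM. Trpv6, a calcium channel gene that the receptor induces in intestine, stood at 4.79 TPM. In the list of 9 vitamin D handling and target genes, 6 reached 1 TPM, against 55.9% of all protein-coding genes. Lgals1 at 269 TPM, Pdia3 at 256 TPM and Cyp27a1 at 8.42 TPM were highest, while S100g and Cyp24a1 were lowest at 0.212 and 0.0541 TPM. Hr, the hairless corepressor that binds Vdr and whose loss also ends hair cycling, stood at 164 TPM, so that Vdr was 2.05-fold higher.

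The related xenobiotic receptors were far below Vdr. Nr1i3, which encodes the constitutive androstane receptor, stood at 2.10 TPM and Nr1i2, the pregnane X receptor, at 0.00707 TPM. Nr1i3 overlaps its neighbour Tomm40l, which stood at 18.1 TPM, over 1044 bases, and the strand used in counting is not given in the sources used here. The bile acid receptor gene Nr1h4 was listed at 0. Of 8 targets of these receptors, 2 reached 1 TPM, Ugt1a1 at 6.27 TPM and Cyp2b10 at 2.60 TPM. Abcb11 stood at 0.607 TPM and Abcb1a at 0.417 TPM, while Cyp3a11, Fgf15, Slc51a and Slc51b were listed at 0.

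The retinoid receptor genes differed widely in level in this 1 library. Rarg (ENSMUSG00000001288, chr15:102234938-102257522), the retinoic acid receptor best known from skin, stood at 101 TPM, 5.32-fold above Rara at 19.0 TPM. Rarb, itself a retinoic acid target, stood at 1.46 TPM, so that Rarg was 69.4-fold higher. The span of Rarb also holds the pseudogene Gm46442, at 443 TPM, over 525 bases, and whether its reads touch the Rarb value was not tested. Of the RXR genes, Rxra stood at 66.9 TPM, Rxrb at 29.7 TPM and Rxrg at 0.0548 TPM. Rxra and Rxrb thus supplied nearly all of the 96.7 TPM of RXR transcripts. The 8 retinoic acid target genes had a median of 3.05 TPM, and 5 of them passed 1 TPM, against 55.9% of all protein-coding genes. Dhrs3, which turns retinal back to retinol, led at 101 TPM, followed by Tgm2 at 16.9 TPM and Crabp2 at 7.77 TPM. Of the genes for enzymes that break down retinoic acid, Cyp26b1 stood at 2.50 TPM and Cyp26a1 at 0.139 TPM, and Cyp26c1 was listed at 0.

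RXR is shared by many partners, and their transcripts outnumbered it. The 14 listed partners with a known ligand summed to 618 TPM, 6.39-fold the RXR sum. Vdr made up 54.3% of the partner sum. Without Vdr the partners came to 282 TPM, 2.92-fold the RXR sum. These are RNA sums and say nothing of how much protein was present or which pairs formed.

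Among thyroid hormone and lipid receptors, 1 gene of each subfamily was far above the others. Thra stood at 46.0 TPM, 18.8-fold above Thrb at 2.45 TPM. The end of Thra overlaps Nr1d1, a clock receptor gene at 3.78 TPM, over 1075 bases, so some reads may be assigned to either. Dio3, which inactivates thyroid hormone, stood at 31.4 TPM, against 0.541 TPM for Dio2, which activates it, and Dio1 was listed at 0. Of 9 thyroid hormone handling and target genes, 6 reached 1 TPM, against 55.9% of all protein-coding genes. The list was led by Hr as above, Dio3 and Klf9 at 7.33 TPM, and Thrsp was near the bottom at 0.159 TPM.

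Nr1h2, which encodes the oxysterol sensor LXR beta, stood at 86.0 TPM, and Nr1h3, which encodes LXR alpha, at 0.554 TPM. The 8 LXR target genes had a median of 27.2 TPM, and 7 of them passed 1 TPM. Apoe, a lipid carrier, was by far the highest at 4571 TPM, followed by Srebf1 at 52.6 TPM and Scd2 at 46.8 TPM. The cholesterol exporter genes Abca1 and Abcg1 were lowest at 4.52 and 0.451 TPM. Of the fatty acid sensors, Ppard stood at 21.3 TPM, Ppara at 1.55 TPM and Pparg, the receptor of fat cells and sebocytes, at 0.567 TPM. The gene ID of Ppard also carries the symbol of the noncoding gene 1810013A23Rik. The 12 PPAR target genes had a median of 14.5 TPM, and 11 of them passed 1 TPM. Angptl4 at 223 TPM, the beta-oxidation enzyme gene Hadha at 143 TPM and the lipid droplet gene Plin2 at 62.3 TPM were highest, and Cd36 at 2.02 TPM and the fat cell hormone gene Adipoq at 0.281 TPM were lowest.

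Several orphan receptors, for which no hormone is known, were expressed. Nr2f6, which encodes the COUP family member EAR2, stood at 45.8 TPM, against 1.05 TPM for Nr2f2 and 0.0784 TPM for Nr2f1. Nr2f2 is a marker of veins and mesenchyme, and its level stood beside marker sums of 11.3 TPM for endothelium and 879 TPM for fibroblasts. Whether its transcripts came from such cells was not tested. The testicular receptor genes Nr2c2 and Nr2c1 stood close together at 7.36 and 5.79 TPM, and Nr2c2 overlaps Mrps25, at 30.2 TPM, over 3547 bases. Esrra, an estrogen-related receptor that drives genes of mitochondria, stood at 19.3 TPM and its relative Esrrb at 0.00413 TPM. Its coactivator genes were low, with Ppargc1b at 0.929 TPM and Ppargc1a at 0.142 TPM, whereas the related Pprc1 stood at 25.1 TPM. Rora and Rorb, which bind clock elements, stood at 1.9998 and 0.0183 TPM. Of the other clock receptor genes, Nr1d2 stood at 6.501 TPM. The 7 listed clock genes had a median of 5.18 TPM and all passed 1 TPM, led by Nfil3 at 33.2 TPM, Arntl at 12.7 TPM and Dbp at 5.97 TPM, with Per2 and Npas2 lowest at 3.18 and 3.15 TPM. Nr6a1 and Nr5a2, known from germ cells and from liver, stood at 0.863 and 0.0218 TPM. Among receptor genes off the list, Nr2e3, known from the retina, stood at 0.0221 TPM and Hnf4g was listed at 0.

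Across 12 subfamilies of closely related members, 10 had a gene at 1 TPM or more. In 7 of these 10 the highest gene held 90% or more of the subfamily's TPM, from 91.0% for Ppard to 99.98% for Esrra. In the other 3 subfamilies the highest gene held 83.2% (Rarg), 69.2% (Rxra) and 55.9% (Nr2c2). The estrogen receptor and NR5A subfamilies had no gene at 1 TPM. The tally leaves out 3 groups, the listed NR3C and ROR genes, which are not whole subfamilies, and the NR0B genes, both listed at 0. Of these, Nr3c1 and Rora were each the only listed gene of their group at 1 TPM or more. Hnf4a, Nr2e1 and Nr6a1, which have no listed relative in their own subfamily, are left out as well.

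**Figure D2:**
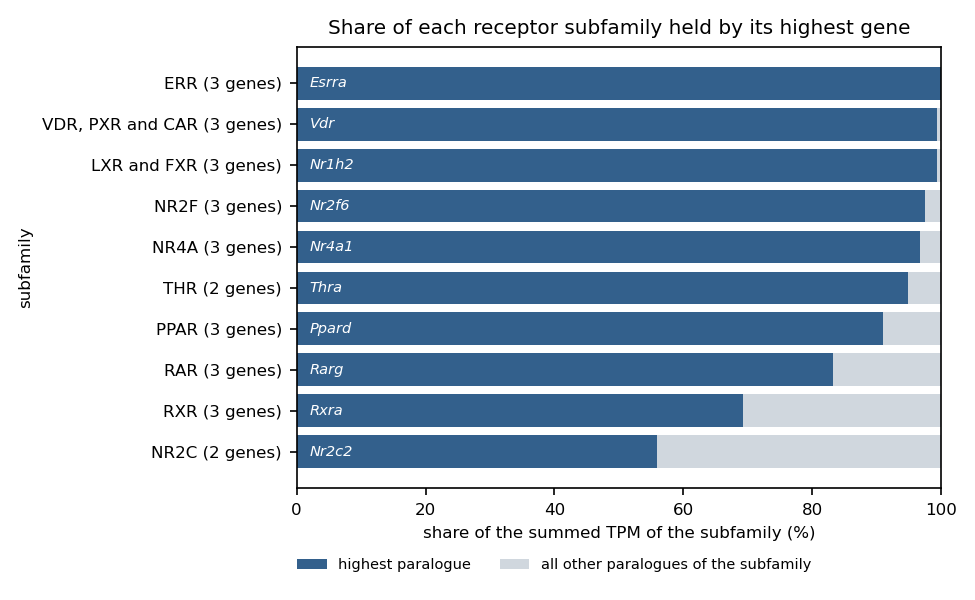
Share of the summed TPM of each receptor subfamily held by its highest gene (dark bars, gene named) and by all its other genes (light bars), for the 10 subfamilies with a gene at 1 TPM or more. In 7 of 10 the highest gene takes 90% or more, and the NR2C pair is the most even at 55.9%.

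Nr4a1, also called NUR77, belongs to a group of receptors that are switched on within minutes of a stimulus and act without a known hormone. It stood at 94.5 TPM (ENSMUSG00000023034, chr15:101253902-101274795), 32.7-fold above Nr4a2 at 2.89 TPM, and Nr4a3 stood at 0.298 TPM. The 14 listed immediate early genes had a median of 104.5 TPM, and none was under 5 TPM. Fos at 237 TPM, Jun at 233 TPM and Egr1 at 219 TPM were highest, and Egr2 and Ier5 were lowest at 15.2 and 12.6 TPM. Fos was 2.51-fold above Nr4a1. Isolating cells is known to induce such genes, and its part in the Nr4a1 level was not tested. The promoter of Nr4a1 is shown because it differs from those of its relatives in exact copies of a short motif. The sequence is the 250 bases before the transcription start from RefSeq (GRCm38.p6, chr15:101266596-101266845, plus strand), 5′ to 3′, with every copy of TGCGTCA, a variant of the element bound by CREB and AP-1 factors, in capitals.
Nr4a1: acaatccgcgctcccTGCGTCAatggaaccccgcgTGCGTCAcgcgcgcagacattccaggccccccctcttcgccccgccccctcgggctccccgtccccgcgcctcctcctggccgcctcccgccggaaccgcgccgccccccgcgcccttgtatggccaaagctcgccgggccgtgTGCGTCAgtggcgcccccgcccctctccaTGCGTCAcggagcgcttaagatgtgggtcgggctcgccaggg

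The Nr4a1 window held 4 copies of TGCGTCA, which begin 235, 215, 71 and 42 bases before the start. Those of Nr4a2 and Nr4a3 held none on either strand. Both held CGTCA, the end of the motif, at several places over both strands, so the difference lies in the exact longer motif only. How often CGTCA alone occurs was not counted over all genes. Of 16732 protein-coding genes with a promoter entry, 2.48% had at least 1 copy on either strand, 6 genes had 2 or more, and Nr4a1 was the only gene with 3 or more. The motif was chosen after the Nr4a1 sequence had been read, so these counts are no test of whether Nr4a1 stands out. A match is a description of the letters and not a measured binding site. The full palindrome TGACGTCA, present in 2.26% of these genes, was not in the Nr4a1 window and was found in 1 of 39 receptor promoters, that of Nr2e1.

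Receptors act through cofactors, and corepressor genes were higher than coactivator genes. The 9 corepressor genes had a median of 39.5 TPM and all passed 1 TPM, against 11 of 13 coactivator genes and a median of 7.64 TPM. Besides Hr, the highest corepressor genes were Ncor1, the scaffold that unliganded receptors recruit, at 66.2 TPM and Gps2, a subunit of its complex, at 45.1 TPM, and Nrip1 and Lcor were lowest at 9.29 and 1.29 TPM. The arginine methyltransferase gene Carm1 led the coactivators at 30.04 TPM, followed by Pprc1 and by Ncoa3 at 14.2 TPM. Ncor1 was 4.65-fold above Ncoa3. The corepressors summed to 3.16-fold the coactivators, or 1.84-fold when Hr was left out.

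**Figure D3:**
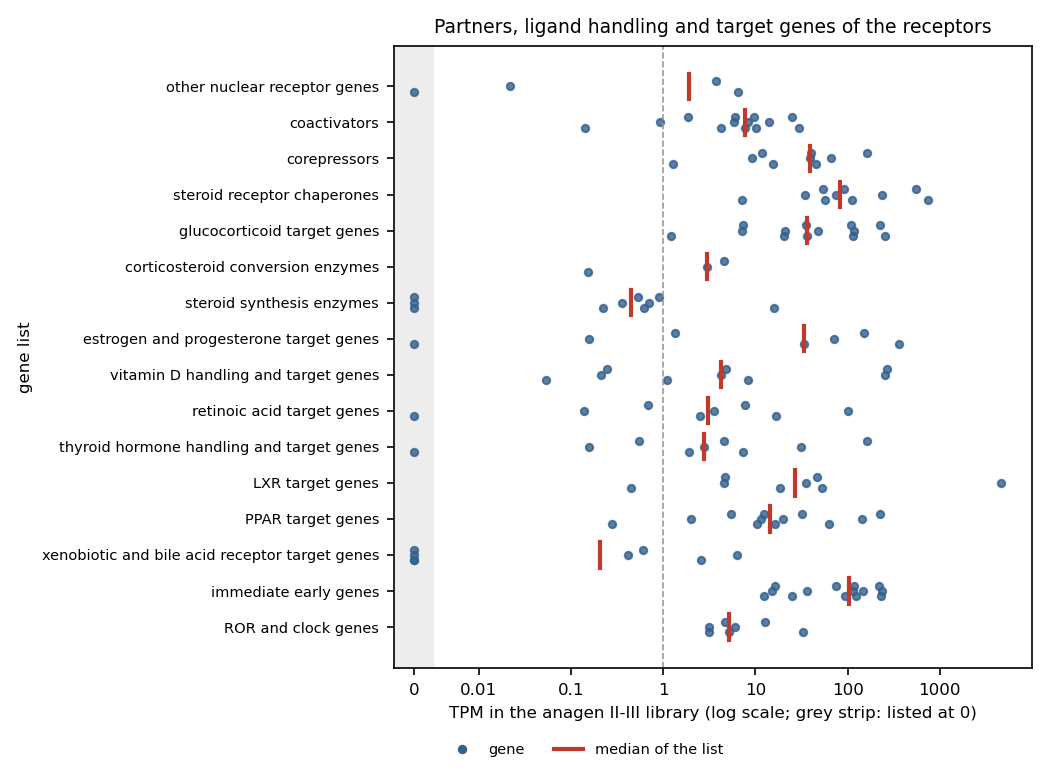
Level of each gene (points) and the median (red bars) of 16 lists of receptor partners, ligand handling enzymes, target genes and related receptors in the anagen II-III library, on a log axis of TPM with genes listed at 0 in the grey strip. Chaperones (median 82.5 TPM) and immediate early genes (104.5 TPM) lie to the right, and steroid synthesis enzymes and targets of xenobiotic and bile acid receptors lie mostly under the dashed line at 1 TPM.

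RefSeq promoter windows were found for 39 of the 42 receptors. Each window runs from 250 bases before to 50 bases after a start, and Nr3c1, Nr5a1 and Thra had no entry. The CpG ratio, which sets the CG dinucleotides in a window against the number its C and G content would give by chance, was averaged over a gene's starts. Its median was 0.736 in the 19 matched receptors at 1 TPM or more and 0.496 in the 20 under 1 TPM. The ranges overlapped widely, from 0.109 to 1.05 and from 0.130 to 0.866. For all protein-coding genes the medians were 0.759 at 1 TPM or more and 0.240 under 1 TPM. The receptors under 1 TPM thus had a higher median ratio than all protein-coding genes under 1 TPM. Of these sets, 6 of the 20 receptors and 3551 of the 7330 genes were listed at 0. The share at 0.6 or more was close to that of genes in general, with 4 of 20 receptors (20.0%) against 17.9% of genes under 1 TPM. With the start site of highest ratio in place of the mean, the count under 1 TPM was 8 of 20 (40.0%), against 20.1%. The genes this added were Pparg, with 3 starts, and Nr2f1, Rxrg and Rorb, with 2 each. A gene with more starts has more ratios to choose from, and the number of starts per gene was not compared with other genes. In the 10 matched receptors at 10 TPM or more the median ratio was 0.804, against 0.789 for protein-coding genes at that level. Of these receptors 6 (60.0%) had a mean ratio of 0.6 or more, against 78.0% of such genes. At 1 TPM or more, 12 of 19 receptors (63.2%) did, against 72.3%. Of the 4 highest receptors, Vdr and Rarg had ratios of 0.546 and 0.420, and Nr4a1 and Nr1h2 had 0.913 and 0.988. Nr2f6 had a ratio of 1.04. Nr2f2 and Nr1i3 had the lowest ratios of the receptors at 1 TPM or more, 0.109 and 0.144. Genes listed at 0 had both kinds of promoter, with Esrrg at 0.817 and Nr0b2 at 0.162.

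**Figure D4:**
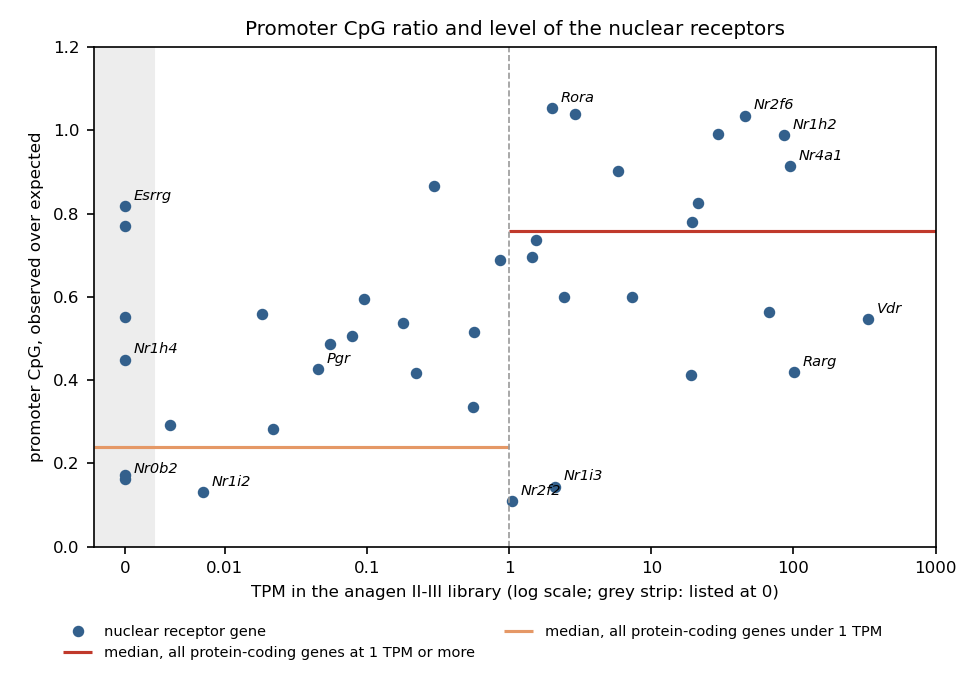
Promoter CpG ratio (observed over expected) against TPM in the anagen II-III library (log axis, genes listed at 0 in the grey strip) for 39 nuclear receptors, with some genes named. Lines give the medians of all protein-coding genes at 1 TPM or more (0.759) and under 1 TPM (0.240). Vdr and Rarg lie right of most points but below the upper line.

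A plain count of CG also follows the C and G content and is not the ratio above. By that ratio Pgr stood at 0.427, close to Rarg. The windows before the start of 4 receptors are given as examples, with each CG in capitals and all sequences written 5′ to 3′ from RefSeq GRCm38.p6. They are Vdr (chr15:97908297-97908546, minus strand), the highest receptor, with 11 CG in 250 bases, Nr2f6 (chr8:71381953-71382202, minus strand), an expressed orphan receptor with 42, Pgr (chr9:8899583-8899832, plus strand), with 4, and Nr0b2 (chr4:133553126-133553375, plus strand), listed at 0, with 3.
Vdr: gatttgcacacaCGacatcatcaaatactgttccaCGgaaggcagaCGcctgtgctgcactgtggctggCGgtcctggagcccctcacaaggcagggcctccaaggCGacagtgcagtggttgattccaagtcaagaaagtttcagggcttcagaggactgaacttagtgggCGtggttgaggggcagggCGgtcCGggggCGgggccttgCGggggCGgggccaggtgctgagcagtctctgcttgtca
Nr2f6: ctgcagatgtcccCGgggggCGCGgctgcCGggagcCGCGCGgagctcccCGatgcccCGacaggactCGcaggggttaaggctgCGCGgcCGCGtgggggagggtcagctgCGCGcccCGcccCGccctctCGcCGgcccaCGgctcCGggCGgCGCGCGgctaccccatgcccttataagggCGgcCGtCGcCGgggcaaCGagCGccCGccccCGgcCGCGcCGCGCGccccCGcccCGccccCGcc
Pgr: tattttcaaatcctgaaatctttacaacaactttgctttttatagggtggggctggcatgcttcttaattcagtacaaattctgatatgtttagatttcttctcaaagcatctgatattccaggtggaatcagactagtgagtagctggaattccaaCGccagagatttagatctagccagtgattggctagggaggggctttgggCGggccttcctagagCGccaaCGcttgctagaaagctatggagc
Nr0b2: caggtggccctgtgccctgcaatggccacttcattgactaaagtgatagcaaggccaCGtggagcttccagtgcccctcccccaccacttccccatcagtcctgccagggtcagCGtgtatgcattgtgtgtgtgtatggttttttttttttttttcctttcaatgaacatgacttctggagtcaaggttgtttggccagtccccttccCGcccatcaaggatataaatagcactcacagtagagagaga

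Other letters in these windows were counted on both strands in the 250 bases before any start. GGGCGG, the GC box, was in 13 of 19 receptors at 1 TPM or more and in 9 of 20 under 1 TPM, against 65.2% and 23.8% of all protein-coding genes at those levels. It occurred in 9 of the 10 matched receptors at 10 TPM or more, against 68.0% of protein-coding genes at that level. CCAAT, the CCAAT box, was in 5 of 19 and in 12 of 20, against 41.1% and 37.1%. TATAAA, the TATA box, was in 2 of 19 and in 6 of 20, against 7.74% and 20.6%. AGGTCA, the core element that many nuclear receptors bind, was in 9 of 39 receptors (23.1%) and in 14.5% of all protein-coding genes with an entry. The windows of Vdr, Nr2f6, Pgr and Nr0b2 did not hold it. Of the receptors with AGGTCA, Rarg, Rxra, Thrb, Nr6a1, Rxrg and Nr5a2 have 2 starts and Pparg 3, while Nr0b1 and Nr1h4 have 1. A gene with several starts had more bases searched for each motif, and the part of this in the shares was not tested.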

How the data were processed

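The deposited values are TPM, as the column names state. The authors used Bowtie2 2.2.9, RSEM 1.2.30 and the mm10 build, per the submitters' processing notes. The annotation is not given in the sources used here. Of 12 columns with sample values, the column numbered 1 was used for the anagen sample, whose title alone carries that number, and the other 11 were not used. No fold change between stages was therefore computed.

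Each of 42392 gene IDs was used once, and missing symbols came from a table of gene names, which matched 41523 IDs. For symbols with several IDs the higher value was kept. Protein-coding genes and positions came from RefSeq GRCm38.p6, matched by symbol. The members, the 23 gene lists and the alternatives were chosen with earlier results of these data known. All 42 members are named, with the 3 highest and 2 lowest genes of other lists and every gene of lists of 6 or fewer. Cell type markers are the exception and are given mainly as sums. Ties at 0 and genes set against a member were added after their values were seen. Sts was not analysed here, some related genes are not reported here, and a planned look at protein sequences was not made. The promoter CpG count was tested on simulated data. Minus-strand promoter windows were checked to read 5′ to 3′ along the gene. Tools were pandas 2.3.3 and numpy 2.4.6 in Python 3.11.15, with matplotlib 3.10.9 for plots.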

Additional observations from a re-analysis of the deposited data

How the results depend on the processing

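No paired analysis was possible because the result comes from 1 library and from no test. The number of receptors at 1 TPM or more was 21, and between 14 and 24 under thresholds of 5 and 0.5 TPM, where 42.4% and 59.7% of protein-coding genes passed. It was 22 under both rescalings and 21 with the sum over gene IDs. The median over all 42 receptors was 1.66 TPM when mitochondrial genes and the 50 highest genes were left out of the scaling, 1.47 TPM when scaled over protein-coding genes, and 19.3 TPM over members at 1 TPM or more only. These rescalings multiply every value by 1.73 and 1.53, so no fold or order moves. The highest receptor held 36.3% of the summed TPM, and without Vdr the next one, Rarg, held 17.2%. With the start site of highest CpG ratio, an alternative chosen after seeing the data, the median ratios were 0.826 and 0.544 at and under 1 TPM, and 8 receptors under 1 TPM, in place of 4, had a ratio of 0.6 or more. A change of over 1.5-fold was counted as a move, since no replicate spread or interval exists. Depth is unknown, so values under 1 TPM and those listed at 0 cannot be told from no expression.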

Other observations

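The 3 highest nuclear receptors, Vdr, Nr4a1 and Rarg, all lie on chromosome 15 within 4.40 Mb (chr15:97854427-102257522), a fact seen only after their values were known. Nr4a1 was 1.10-fold above Nr1h2, which lies on chromosome 7, and with no replicate that order was not established. Of the other members, 1 more lies on chromosome 15, Ppara at 1.55 TPM. The window between the outer ends of Vdr and Rarg also holds the type II keratin genes, among them Krt5 at 3833 TPM. The median over its 128 protein-coding genes was 3.55 TPM, against 2.42 TPM over all protein-coding genes, and the window was drawn from receptors chosen for their levels.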
